A study of Mus musculus with 4 samples.

Results

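RLTR9 and RLTR13 are groups of long terminal repeats (LTRs), the sequences that flank the body of an endogenous retrovirus, and they are followed here in the RNA of mouse embryonic stem cells (ESCs) with and without the telomerase RNA gene Terc. The members were all copies whose repeat name begins with RLTR9 or RLTR13 and is not continued by another digit. They comprised 15377 copies under 36 names, of which 13 names with 5839 copies were RLTR9 and 23 names with 9538 copies were RLTR13. The whole transposable element (TE) table held 3658072 copies under 1072 names. ESCs of generation 3 (G3) C57BL/6 wild-type (WT) mice, from the line N12, were compared with G3 C57BL/6 Terc-/- ESCs from the line F35. Each genotype had 2 poly(A)-selected RNA libraries, and both lines were grown on feeder cells in medium with serum and leukemia inhibitory factor. A genotype was 1 line, so that genotype and line cannot be told apart, and the sources call the libraries replicates without saying that they came from separate cultures, so p-values measure only the spread between these libraries.

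An LTR carries the promoter and regulatory elements of its retrovirus, and after recombination it often remains alone in the genome as a solo LTR. RLTR9 and RLTR13 belong to the ERVK class of mouse endogenous retroviruses. In mouse ESCs, many RLTR9 copies and the RLTR13D6 copies are known as sites where pluripotency factors such as Pou5f1, Sox2, Nanog, Esrrb and Klf4 bind and where chromatin has the marks of enhancers, while RLTR13D5 and RLTR13B are known for such marks in trophoblast stem cells. Silencing of ERVK elements in ESCs involves histone H3 lysine 9 methylation through the corepressor Trim28 and its partner Setdb1, and DNA methylation. The counts are of RNA fragments assigned to a copy. They do not measure enhancer activity, and RNA made from an LTR was not separated from RNA of a longer transcript that runs through it, so the description as ESC enhancers was not checked by these data. The deposited table gives each copy as a repeat name and a running number, without position or sequence, and copies are therefore named by that number.

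The libraries held between 18047995 and 22520017 gene counts and between 1805047 and 2104586 TE counts. Terc had only 7 and 2 counts in WT, too few to be tested, and none was counted in either Terc-/- library. These counts therefore say little about its loss. The ES cell markers Pou5f1, Sox2, Nanog and Esrrb were abundant in all 4 libraries. The 13 feeder fibroblast markers summed to 281 and 182 CPM of gene counts in WT (CPM is counts scaled to a library total of 1000000) and to 351 and 240 in Terc-/-. At an adjusted p under 0.05, 6 of the 12 tested were higher in Terc-/-, beside 21.7% of all genes tested. The 6 primitive endoderm markers summed to 29.7 and 27.9 CPM in WT and to 18.2 and 13.4 in Terc-/-, and the 7 trophectoderm markers to between 31.6 and 35.3 in every library. In such bulk RNA, fewer cells of a type and less RNA per cell cannot be told apart.

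Most RLTR9 and RLTR13 copies had no count. Of the 15377 copies, 13232 were at 0 in all libraries, 1396 had 1 to 4 counts, and 749 had at least 5. Those 749 copies were 4.87% of the members, beside 4.81% of all TE copies and 3.25% of the copies of other RLTR names, and they held between 92.5% and 95.1% of the member counts of a library. Counts were concentrated further in 77 copies of at least 100 counts, which held 62.8% of all 40907 member counts, and 42 of these 77 were RLTR9E or RLTR13G. RLTR9E held 27.1% of the member counts and RLTR13G 25.8%. For 8 of the 35 names with enough counts to test, 1 copy held over 50% of the counts, and the share of the top copy ranged from 10.7% in RLTR13C2 to 86.6% in RLTR9A2. Since copies differ in length and number, levels were not compared between names.

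The shares of RLTR9 and RLTR13 differed between the genotypes in opposite directions. RLTR9 made up 0.210% and 0.214% of the TE counts in WT and 0.228% in both Terc-/- libraries. RLTR13 made up 0.321% and 0.319% in WT and 0.250% and 0.265% in Terc-/-. The Terc-/- libraries thus lay above WT for RLTR9 and below it for RLTR13, without overlap. With 2 libraries against 2, an exact two-sided permutation test cannot give a p below 0.333, which is its value for both shares.

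The lower RLTR13 share in Terc-/- rested on RLTR13G. Without RLTR13G, the share of RLTR13 was 0.148% and 0.147% in WT and 0.167% and 0.172% in Terc-/-, so that the Terc-/- libraries lay above WT. Without RLTR9E, RLTR9 was at 0.0740% and 0.0765% in WT and at 0.0896% and 0.0871% in Terc-/-. When the top copy of each name, that with the most counts, was left out, RLTR9 stood at 0.152% and 0.151% in WT and at 0.187% and 0.188% in Terc-/-, and RLTR13 at 0.215% in both WT libraries and at 0.188% and 0.203% in Terc-/-.

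Counts were then summed over the copies of each name and fitted with all other TE names by edgeR's quasi-likelihood test, where a log2 fold change is Terc-/- over WT. At a fold change above 1.5 and an unadjusted p under 0.05, 1 of the 35 tested names was higher, RLTR13D3, and 1 was lower, RLTR13G. Over all 917 names tested, 5.13% were higher and 2.94% lower by the same cutoffs. RLTR9A4, with 4 counts in all, was not tested. By the Benjamini-Hochberg adjusted p at any fold change, 5 names were higher (RLTR13D3, RLTR13C2, RLTR13A3, RLTR9A and RLTR13B3) and RLTR13G alone was lower, beside 13.2% higher and 11.6% lower over all names. The Terc-/- libraries lay wholly above WT in CPM of TE counts for 15 names and wholly below for 5, beside 36.5% and 23.8% of all names. The median log2 fold change of the 35 names was 0.15, beside 0.00 over all 917 and 0.02 over 142 other RLTR names.

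**Figure D1:**
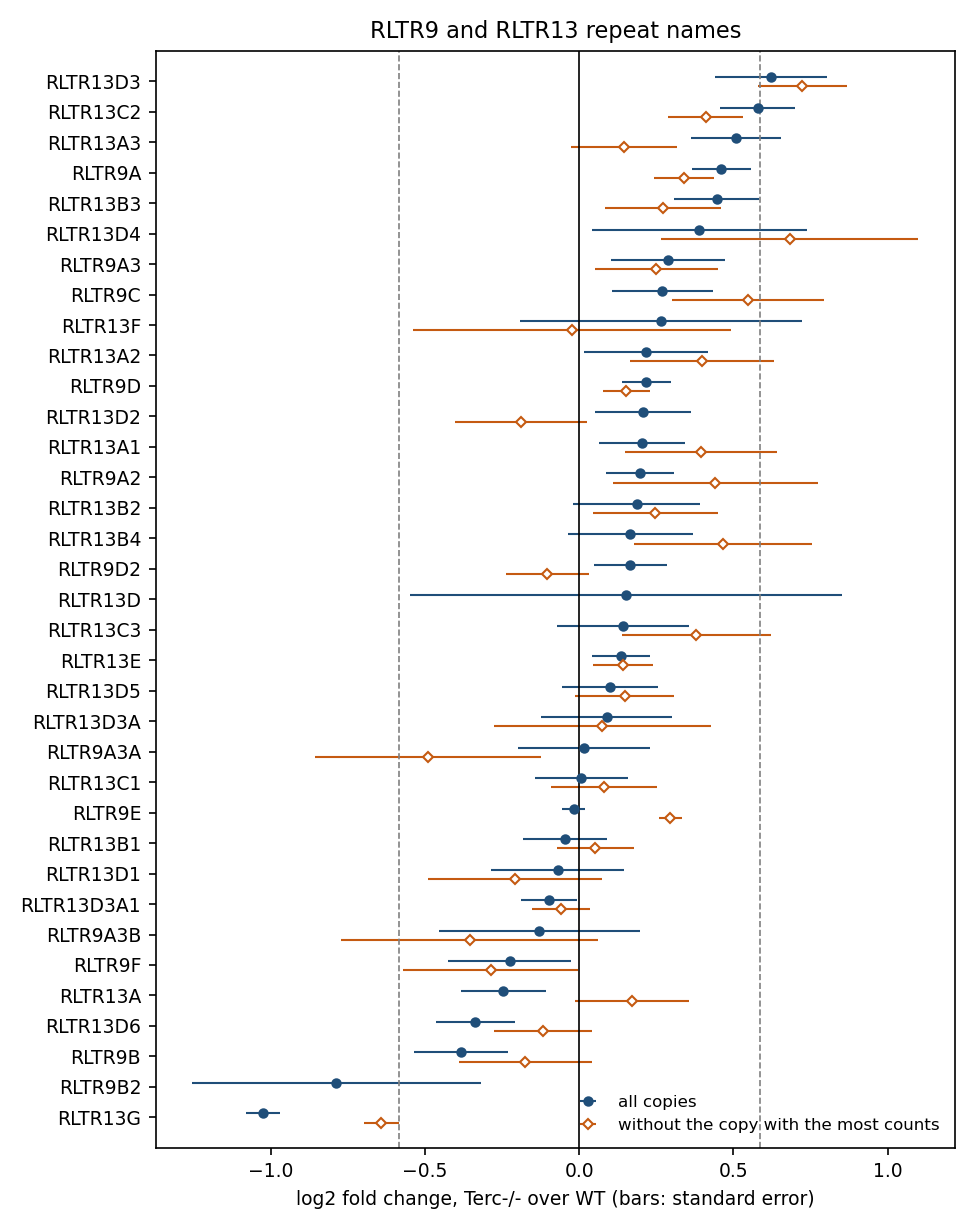
Log2 fold change (Terc-/- over WT) of each of the 35 tested repeat names with its standard error, for all copies (filled) and without the top copy (open). Dashed lines mark a fold change of 1.5. RLTR13G at -1.02 (SE 0.05) is the lowest. RLTR9B2 at -0.79 (SE 0.47, unadjusted p = 0.124 by edgeR's quasi-likelihood test) also lies past the lower line. RLTR13D3 at 0.62 is the only filled point past the upper line. Open points past it include RLTR13D4 at 0.68 (SE 0.42). RLTR9E moves from -0.02 to 0.30 when its top copy is left out.

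RLTR13G was the name with the clearest change. Its summed counts were 3560 and 3606 in WT and 1711 and 1673 in Terc-/-. In CPM of TE counts the sums were 1729 and 1713 in WT and 828 and 927 in Terc-/-. The means were 1721 ± 11.1 in WT and 878 ± 69.6 in Terc-/- (SD, n = 2), a log2 fold change of -1.02 (SE 0.05). The change was spread unevenly over its copies. Copy 769 alone held 25.5% of the counts, and without it the log2 fold change was -0.64 (SE 0.06, adjusted p = 0.000178). Leaving out the 5 copies with the most counts gave -0.50 and leaving out 10 gave -0.34, as ratios of scaled counts without a test.

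RLTR9E had the most counts of all names, and its sum hardly differed. The counts were 2807 and 2884 in WT and 2865 and 2546 in Terc-/-, or 1367 ± 4.96 and 1399 ± 16.5 CPM of TE counts (SD, n = 2). The log2 fold change was -0.02 (SE 0.04, adjusted p = 0.798). This sum joined copies that moved in opposite directions. Copy 223, with 16.0% of the counts, had 688 and 755 counts in WT and 185 and 153 in Terc-/-. Without it, RLTR9E stood at 2119 and 2129 counts in WT and at 2680 and 2393 in Terc-/-, a log2 fold change of 0.30 (SE 0.04) with an adjusted p of 0.0014, although the fold change stayed under 1.5.

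RLTR13D3 was the only name higher by the fold cutoff. It had 281 and 217 counts in WT and 467 and 277 in Terc-/-, or 136 and 103 against 226 and 153 CPM of TE counts. The groups did not overlap on that scale, but the Terc-/- libraries differed between themselves by more than the distance from the lower of them to WT. The log2 fold change was 0.62 (SE 0.18, adjusted p = 0.0301), and 0.72 (SE 0.15, adjusted p = 0.0108) without its top copy. The call was lost with DESeq2 in place of edgeR, and the log2 fold change dropped under the cutoff without the second WT library, to 0.43, and without the first Terc-/- library, to 0.32. The top copy, 114, had 124 and 66 counts in WT and 168 and 79 in Terc-/-, so that the first library of each genotype was the higher. The summed feeder markers above had the same order over the 4 libraries as copy 114, whereas the RLTR13D3 sum had both Terc-/- libraries above WT in CPM. The part of the feeder cells in the RLTR13D3 result was not tested.

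**Figure D2:**
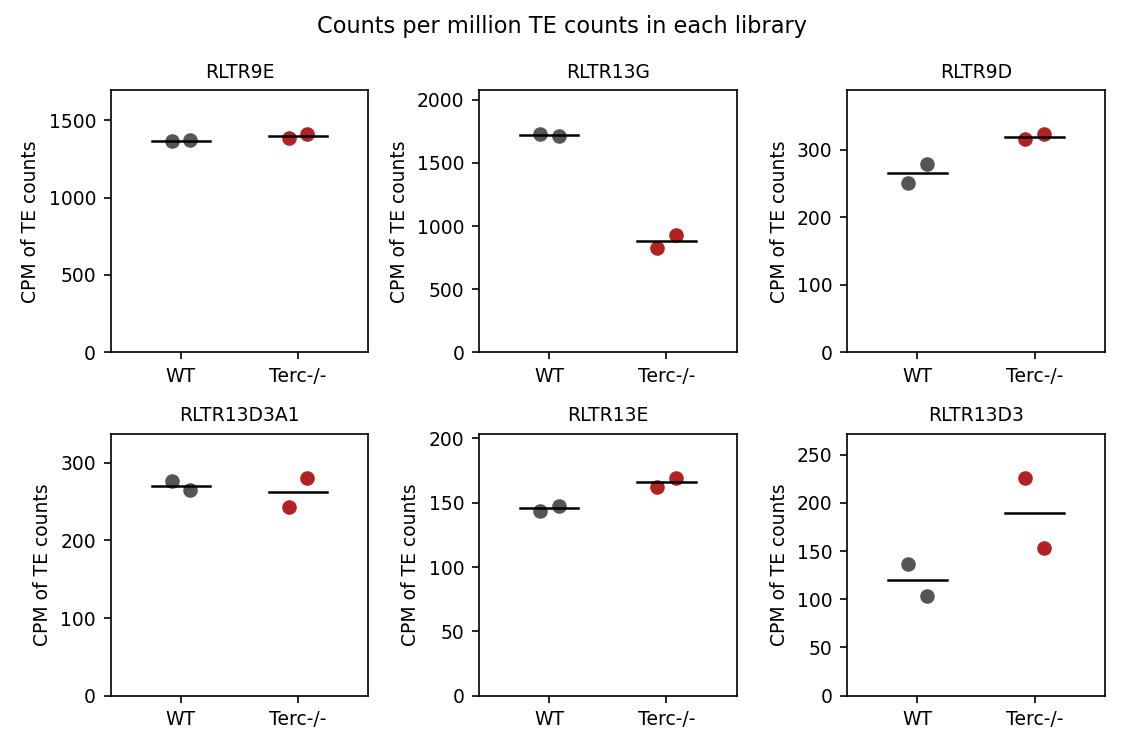
CPM of TE counts (vertical axes from 0) in each of the 2 WT and 2 Terc-/- libraries for the 6 names with the most counts; each point is a library and the line is the mean. RLTR13G falls from about 1721 to 878, RLTR9E stays near 1367 and 1399, and the RLTR13D3 libraries of Terc-/- are far apart at 226 and 153.

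Of the other names with many counts, RLTR9D had 517 and 586 counts in WT and 651 and 583 in Terc-/-, or 251 and 278 against 315 and 323 CPM. Its log2 fold change of 0.22 (SE 0.08) had an adjusted p of 0.0747. RLTR13E had 296 and 310 counts in WT and 335 and 306 in Terc-/-, with a log2 fold change of 0.14 (SE 0.09, adjusted p = 0.333). RLTR13D3A1 had 569 and 557 counts in WT and 503 and 507 in Terc-/-, and its libraries overlapped in CPM, at 276 and 265 against 244 and 281. RLTR9D and RLTR13E were without overlap, but neither passed the adjusted test.

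The 4 further names that were higher by adjusted p alone leaned on single copies to different degrees. RLTR13C2 had a log2 fold change of 0.58 (adjusted p = 0.0063), and 0.41 (adjusted p = 0.0509) without its top copy. RLTR9A had 0.46 (adjusted p = 0.0063), and 0.34 (adjusted p = 0.0433) without it. RLTR13A3 went from 0.51 to 0.14 and RLTR13B3 from 0.45 to 0.27, and neither passed the adjusted test without its top copy. Of the 33 names that could be tested without the top copy, 3 were higher by adjusted p, which were RLTR13D3, RLTR9A and RLTR9E, and the sign changed for 7. Over all names without their top copies, 9.95% were higher and 10.5% lower.

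The names best known for binding of pluripotency factors did not move as one. RLTR13D6 had 215 and 220 counts in WT and 159 and 172 in Terc-/-, a log2 fold change of -0.34 (SE 0.13) with an adjusted p of 0.0867, and of -0.12 without copy 736. RLTR9B had 106 and 105 counts in WT and 87 and 69 in Terc-/-, a log2 fold change of -0.38 (SE 0.15) with an adjusted p of 0.0987. Without copy 60, which held 51.8% of the RLTR9B counts, it was -0.18 (SE 0.22, adjusted p = 0.647). RLTR13D6 and RLTR9B lay below WT in each Terc-/- library, while RLTR9A and RLTR9D lay above it. Over all names tested, 23.8% lay wholly below and 36.5% wholly above. Among the names known from trophoblast stem cells, RLTR13D5 was at 0.10 (SE 0.15, adjusted p = 0.711), its counts being 131 and 175 in WT against 156 and 159, and the 4 RLTR13B names ranged from -0.05 to 0.45.

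Single copies were fitted next, each of the 749 copies with at least 5 counts within a fit of all 176114 such TE copies. At a fold change above 2 and an unadjusted p under 0.05, 76 member copies were higher and 47 lower, which is 10.1% and 6.28% of those tested, beside 4.70% and 3.87% of all TE copies and 5.96% and 4.29% of the copies of other RLTR names. By the adjusted p, 25 copies were higher and 20 lower, beside 0.797% and 0.484% of all copies and 1.34% and 1.25% of those of other RLTR names. Of these 45 copies, 32 were RLTR9E or RLTR13G, which had 218 of the 749 copies. Among the 531 other member copies, 11 were higher and 2 lower by adjusted p. Counts bear on these shares, because 311 of the 749 copies had only 5 to 9 counts, whereas the 77 copies of at least 100 counts gave 28 of the 45 calls. The member shares also include 29 copies at 0 in both WT libraries and 14 at 0 in both Terc-/- libraries. These passed the count filter only through the other genotype, and 4 and 1 of them were called by adjusted p. The shares are therefore a description and not a test. The Terc-/- libraries lay wholly above WT for 238 copies and wholly below for 134, beside 20.9% and 19.1% of all TE copies.

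**Figure D3:**
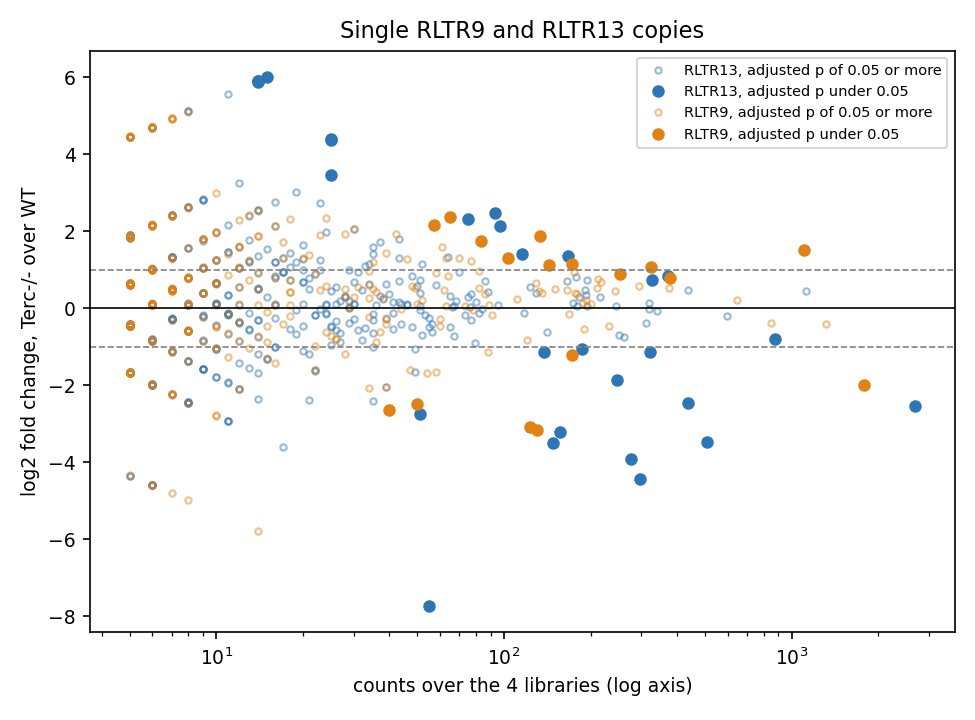
Each point is 1 of the 749 RLTR9 or RLTR13 copies with at least 5 counts, by its counts over the 4 libraries (log axis) and its fitted log2 fold change (Terc-/- over WT), where dashed lines mark a fold change of 2. Filled points have an adjusted p under 0.05 (25 higher, 20 lower), and the 2 copies with the most counts are both lower. Points in slanting rows at the left are copies with few counts, and the fitted values of copies at 0 in a genotype depend on the prior count.

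The 2 copies with the most counts had the smallest adjusted p among the lower copies, although other copies fell by a larger fold. RLTR13G copy 769 had 1164 and 1161 counts in WT and 189 and 181 in Terc-/-, a log2 fold change of -2.55 (SE 0.11, adjusted p = 3.79e-29). RLTR9E copy 223, given above, had -1.99 (SE 0.12, adjusted p = 5.08e-22). In both, the replicate libraries were close and the genotypes far apart. The neighbour in number of the latter, copy 222, moved with it, from 23 and 20 counts to 5 and 2.

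RLTR13G held 13 of the 20 lower copies. Copy 233 went from 146 and 140 counts in WT to 6 in both Terc-/- libraries, a log2 fold change of -4.44 (SE 0.29). Copy 643 had 141 and 120 counts against 9 and 7, copy 648 had 52 and 85 against 5 and 6, and copy 200 had 206 and 263 against 21 and 18, with log2 fold changes of -3.90, -3.50 and -3.48. Copy 852 had 23 and 32 counts in WT and 0 in both Terc-/- libraries, which is at least 8.47-fold lower when 3 counts are taken as the limit of a 0 in each library. All 5 copies had more counts in each WT library than in either Terc-/- library. Copy 400 fell less, from 284 and 289 counts to 148 and 155, a log2 fold change of -0.81 (SE 0.13, adjusted p = 2.88e-05).

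RLTR13G did not fall in all its copies. Of its 102 tested copies, 54 had a positive log2 fold change, 13 were higher and 18 lower at the cutoffs, and 6 were higher by adjusted p. The 13 lower copies together had 2502 and 2590 counts in WT and 491 and 492 in Terc-/-. The rest of RLTR13G had 1058 and 1016 counts in WT and 1220 and 1181 in Terc-/-, a division made by the calls themselves and given as a description only. Copy 279, with the second most counts of the name, had 252 and 247 counts in WT and 302 and 324 in Terc-/-, a log2 fold change of 0.44 with an adjusted p of 0.0557. Its neighbour 280 had 8 and 7 counts against 42 and 36, a log2 fold change of 2.46 (SE 0.40).

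RLTR9E had more higher than lower copies. Of its 116 tested copies, 83 had a positive log2 fold change, 20 were higher and 10 lower at the cutoffs, and 8 were higher and 5 lower by adjusted p. Numbers from 975 to 1013, given below, held 9 of the 20 higher copies at the cutoffs and 7 of the 8 by adjusted p. Copy 894 had 163 and 137 counts in WT and 450 and 354 in Terc-/-, a log2 fold change of 1.52 (SE 0.13, adjusted p = 1.83e-14), and was the higher copy with the most counts. Copies 10 and 11 had 400 and 380 counts against 263 and 279, and 253 and 242 against 183 and 171, with log2 fold changes of -0.42 and -0.38 that did not pass the adjusted test (adjusted p = 0.0570 and 0.200). Copies 793 and 794 fell together, from 53 and 58 counts to 3 and 9 and from 58 and 60 to 5 and 7.

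Higher RLTR9E copies stood close in running number. Between numbers 975 and 1013, 27 of 39 copies had at least 5 counts, or 69.2% against 6.96% of the other RLTR9E copies. This run was built from copies of at least 5 counts with numbers at most 3 apart, so that contrast follows from its definition. Of these 27, 25 had a positive log2 fold change, 7 were higher by adjusted p and none was lower by that or by the unadjusted cutoffs, with a median of 0.77. Their summed counts were 542 and 605 in WT and 1008 and 896 in Terc-/-. Outside the run, 89 copies were tested, of which 58 were positive, 1 was higher and 5 were lower by adjusted p. At the cutoffs, 9 copies were higher and 0 lower in the run, against 11 higher and 10 lower outside it. All RLTR9E copies outside the run summed to 2265 and 2279 counts in WT and to 1857 and 1650 in Terc-/-, a log2 ratio of -0.32. This ratio rested on copy 223, without which the sums outside the run were 1577 and 1524 in WT and 1672 and 1497 in Terc-/-, a log2 ratio of 0.09. The median log2 fold change of the 89 tested copies outside the run was 0.46. The run was picked out after its values were seen. Whether running numbers follow the order of copies along the chromosomes is not given in the sources used here, so the run may or may not be a stretch of the genome.

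**Figure D4:**
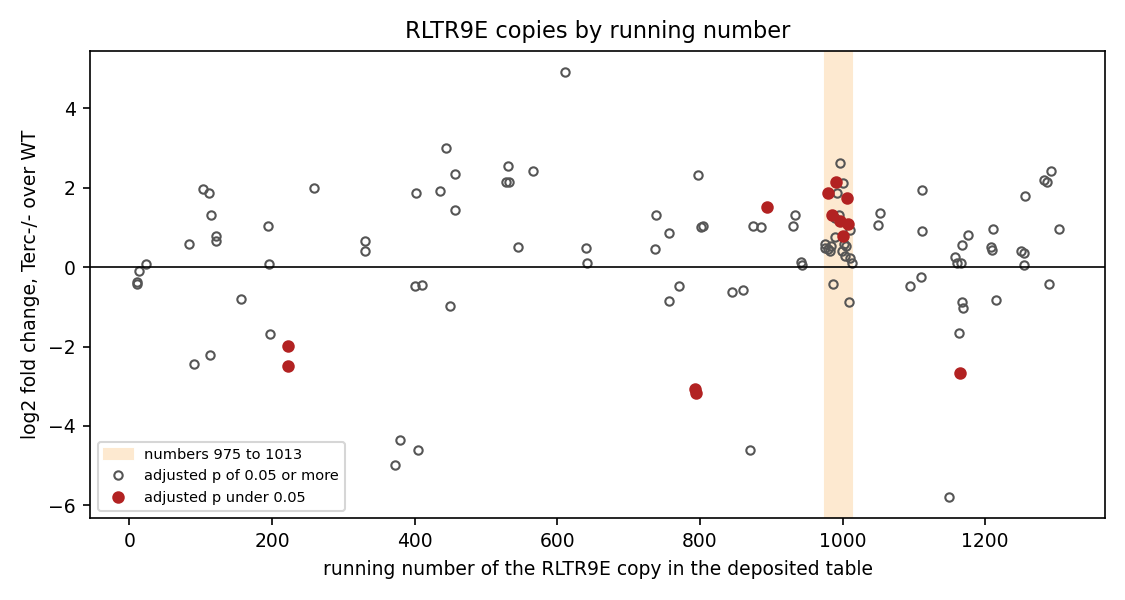
Log2 fold change (Terc-/- over WT) of the 116 tested RLTR9E copies by the running number that the deposited table gives them, with numbers 975 to 1013 shaded and filled points for an adjusted p under 0.05. Of the 8 higher copies by adjusted p, 7 lie in the shaded range, and the 5 lower ones lie outside it.

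In RLTR9D, the copies called by adjusted p also passed the cutoffs, but most of the higher copies at the cutoffs had few counts. Of its 68 tested copies, 12 were higher and 2 lower at the cutoffs, and 11 had no count in either WT library, while none had none in both Terc-/- libraries. These 11 copies had 5 to 8 counts each, summed to 28 and 42 counts in the Terc-/- libraries, and made up 10 of the 12 higher copies. Over all member copies, 29 (3.87%) were at 0 in both WT libraries and 14 (1.87%) in both Terc-/- libraries, beside 2.51% and 2.58% of all tested TE copies. Since a copy with no count in 1 genotype passed the filter only through the other, these counts describe the copies and are not a test. The 3 RLTR9D copies called by adjusted p had more counts. Copy 656 had 24 and 23 counts in WT and 55 and 41 in Terc-/-, and copy 721 had 2 and 9 against 23 and 31, so that both were higher. Copy 448 was lower, with 60 and 63 against 26 and 23.

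The 5 higher copies with the largest fitted log2 fold change all had few counts. RLTR13G copies 269, 584 and 781 and RLTR13D5 copy 595 had no count in WT and 4 and 11, 6 and 8, 4 and 10, and 9 and 5 counts in the Terc-/- libraries. They were at least 2.79-fold, 2.55-fold, 2.59-fold and 2.47-fold higher with 3 counts as the limit of a 0 in each library. RLTR13C3 copy 144 had 1 and 0 counts in WT and 7 and 17 in Terc-/-, a ratio of 25.8 with an exact 95% counting interval from 4.21 to 1062. For the 4 copies at 0 in WT the unadjusted p rose above 0.05 when either Terc-/- library was left out. RLTR9A2 copy 120, which made up most of that name, had 152 and 160 counts in WT and 178 and 157 in Terc-/- (log2 fold change 0.21, adjusted p = 0.713).

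The genes whose products bind, activate or silence such LTRs were read from the gene counts of the same libraries. Among 15 pluripotency transcription factors, 13 were higher and 0 lower in Terc-/- by adjusted p at any fold, beside 21.7% and 21.8% of the 14896 genes tested, and 4 were higher by over 2-fold, beside 4.73%. The median log2 fold change was 0.42, beside 0.01 over all genes. None of the 15 was lower at an unadjusted p under 0.05 or with DESeq2. Tbx3, a T-box factor of the naive state, had 2536 and 2682 counts in WT and 8745 and 7958 in Terc-/-, a log2 fold change of 1.81 (SE 0.05). The homeobox factor Nanog had 8963 and 9039 counts in WT and 19711 and 16426 in Terc-/- (1.13, SE 0.05), and the nuclear receptor Nr5a2 had 863 and 921 against 1926 and 1587 (1.10, SE 0.07).

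Prdm14, a repressor of lineage genes and of DNA methylation, had 358 and 329 counts against 785 and 576 (1.10, SE 0.09), and was named after its value was seen as the fourth factor past 2-fold. The other factors of the list stayed under 2-fold. Tfcp2l1, a factor of the naive state downstream of leukemia inhibitory factor, was at 0.80 (SE 0.05). Pou5f1, Sox2, Esrrb, Klf4 and Klf2, which form the core of the network with Nanog, were at 0.38, 0.44, 0.36, 0.38 and 0.50. Nanog lies on chromosome 6 between 120 and 130 Mb (mm10), where the median over 101 tested genes was 0.54, and the part of this shift of neighbouring genes in the Nanog value was not tested.

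Among 15 enhancer coactivators, 2 were higher and 7 lower by adjusted p, beside 21.7% and 21.8% of all genes tested, with a median of -0.10. Chd7, a chromatin remodeller at enhancers, had 2530 and 2473 counts in WT and 1314 and 1131 in Terc-/- (log2 fold change -0.91, SE 0.06). Arid1a, a subunit of the BAF remodelling complex, was at -0.33 and the histone H3 lysine 4 methyltransferase Kmt2c at 0.35. None of the 15 passed a fold change of 2. The count of lower genes was 3 without the second WT library and 4 without the first.

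Among 28 genes of retrotransposon silencing, 2 were higher and 13 lower by adjusted p, beside 21.7% and 21.8% of all genes tested, with a median of -0.12. The DNA methyltransferase Dnmt3b had 11230 and 11596 counts in WT and 5129 and 4405 in Terc-/- (log2 fold change -1.13, SE 0.05). The heterochromatin protein gene Cbx3 had 3400 and 3708 against 1427 and 1318 (-1.24, SE 0.06), and the remodeller Atrx 12342 and 12747 against 7092 and 6763 (-0.72, SE 0.05). Dnmt3b and Cbx3 were the 2 genes lower by over 2-fold, beside 3.13% of all genes. Cbx3 lies on chromosome 6 between 45 and 80 Mb (mm10), where the median over 129 tested genes was -0.90. The part of this shift of neighbouring genes in the Cbx3 value was not tested. Trim28, the corepressor recruited by KRAB zinc finger proteins, rose to a log2 fold change of 0.41 (SE 0.05), while its partner Setdb1 was at -0.03 (SE 0.05, adjusted p = 0.711). These genes moved in the same 4 libraries as the LTR counts, and no relation between the genes and the LTRs was tested.

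**Figure D5:**
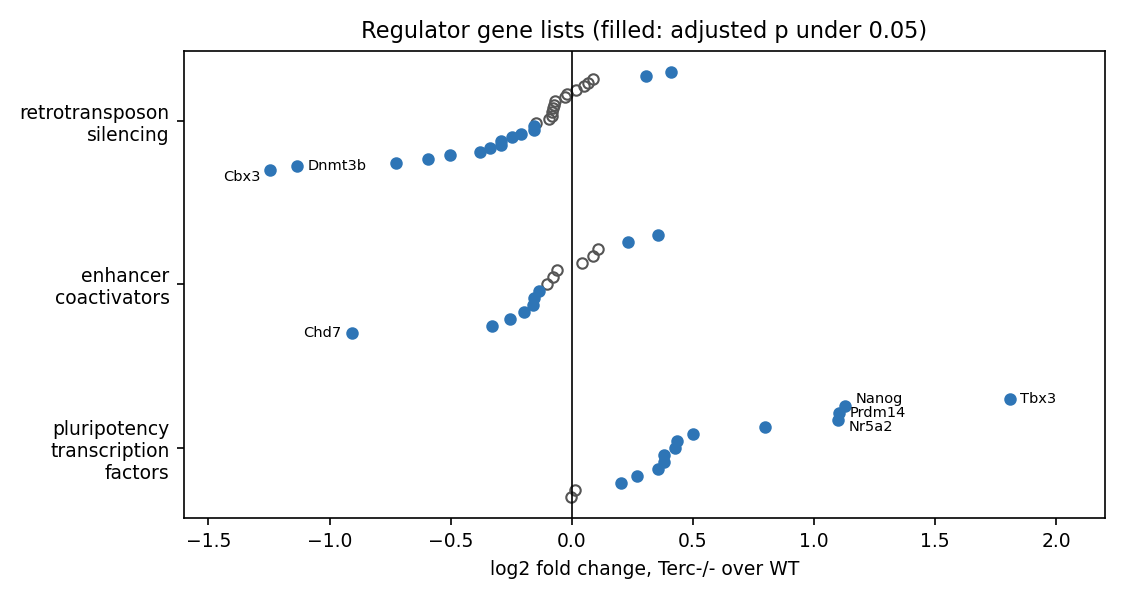
Log2 fold change (Terc-/- over WT) of each gene in 3 lists, with filled points for an adjusted p under 0.05 and names for values beyond 0.9 in size. Of the 15 pluripotency factors 13 are higher, whereas 7 of the 15 coactivators and 13 of the 28 silencing genes are lower. Over all genes tested, 21.7% are higher and 21.8% lower by adjusted p.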

How the data were processed

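RNA-seq of 4 poly(A) libraries was analysed, 2 per genotype. The authors deposited raw counts per gene and per TE copy, and the submitters' processing notes name Trim Galore, STAR, featureCounts and the mm10 build. Versions and the strand setting are not given in the sources used here. The study's methods describe a test of TE copies on uniquely mapped reads, but not whether the deposited counts are of such reads, so counts of near-identical copies are uncertain. No value was normalized before deposit. The members and gene lists were chosen with earlier results of these data known.

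TE copies were summed by repeat name. Names (filterByExpr), copies (at least 5 counts over the 4 libraries) and genes (filterByExpr) were each fitted as a whole table with edgeR 4.0.16 in R 4.3.3 (TMM factors, glmQLFit and glmQLFTest, genotype as the only term), with library sizes taken over the features tested. Cutoffs were a fold change of 1.5 for names and 2 for copies and genes with p under 0.05, and Benjamini-Hochberg adjusted p-values are over all features tested. Tests were two-sided. Ratios of sums without a test used counts divided by TMM-scaled library sizes. CPM are counts scaled to a library total of 1000000, without TMM factors. Intervals and limits of a 0 cover counting error only.

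Names described in full were those past the cutoffs in either direction, those whose call changed without the top copy, and the 6 with the highest CPM. Copies were the 8 with the most counts and up to 5 in each direction by log2 fold change among those with an adjusted p under 0.05. Genes were the first 6 pluripotency factors and up to 3 more of each list by p. Other names, copies and genes given were chosen after their values were seen. The scripts were tested on simulated counts. Alternatives were another scaling, DESeq2 1.42.0, other filters, the replicate number as a block, and leaving out the top copy or each library. Libraries with the same replicate number did not deviate together (correlation of 0.06 over genes and -0.05 over TE names), and nothing in the labels ties them. Gene symbols matched the annotation for 24061 of 24116 IDs.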

Additional observations from a re-analysis of the deposited data

How the results depend on the processing

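The count of higher names was 2 with the scaling of the gene counts and 5 by adjusted p at any fold, and ranged from 1 to 2 when 1 library was left out, as did the count of lower names. With DESeq2 and without the second WT library the higher name was RLTR13C2, and without the first Terc-/- library RLTR13A3 and RLTR13C2, in place of RLTR13D3. RLTR13G was lower in each. Higher copies numbered 36 with DESeq2, 30 with filterByExpr (184 copies tested), 21 with an adjusted p and the same fold, and 30 to 56 without 1 library, with the low end reached without the first Terc-/- library. Lower copies numbered 30, 27, 19 and 30 to 43 under the same settings. With the replicate number as a block, 55 copies were higher and 34 lower, and 1 name was higher and 1 lower. Calls over all 176114 TE copies tested fell as well. They went from 8277 higher and 6815 lower in the main fit to 2816 and 1771 with DESeq2. They were 5416 and 4007 with the block, and 1117 and 644 with an adjusted p and the same fold. With filterByExpr they were 2266 and 1863 of 31182 copies. The log2 fold change of RLTR9E was 0.054 with gene scaling, 0.30 without its top copy and -0.033 to 0.0022 without 1 library, and that of RLTR13D3A1 was -0.21 to 0.011 without 1 library, the upper ends being without the first Terc-/- library, so that both turned in sign. The log2 ratio of the RLTR9 share, 0.11, was 0.16 per gene counts, 0.31 without top copies and 0.10 to 0.12 without 1 library. That of the RLTR13 share, -0.32, was -0.26, -0.14 and -0.36 to -0.27. The coactivators had 1 higher gene with DESeq2, and 1 to 3 higher and 3 to 7 lower without 1 library. Gene scaling moved the median of all names from 0.00 to 0.06. In these settings the cause was not tested, except that filterByExpr and the adjusted p keep fewer copies by construction. In fits without 1 library, the lone library was assumed to vary like the other genotype. Depth limited the copies, of which 311 of 749 had 5 to 9 counts.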

Other observations

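Copies with adjacent running numbers had like values in some places and unlike values in others, and likeness was not tested. The pair given first was picked after its values were seen. RLTR13C2 copies 298 and 299 had 7 and 6 counts and 6 and 13 counts in WT, and 37 and 25 and 41 and 37 in Terc-/-. They were the only RLTR13C2 copies of its 29 tested that were higher by adjusted p. In RLTR13G, the 5 tested copies numbered from 640 to 649 all had a negative log2 fold change, with a median of -2.05 and 2 of them lower by adjusted p. In RLTR13D3, 2 runs of 5 tested copies, numbered 70 to 75 and 80 to 86, each had 4 positive values and 1 copy that was higher by adjusted p. Their medians were 0.54 and 1.24, and their values ran from -1.95 to 1.42 and from -0.41 to 2.63. In RLTR13C2, 5 of 6 copies from 134 to 141 were positive, with values from -0.46 to 1.98. The other runs of at least 5 tested copies, with numbers at most 3 apart, also held values of both signs. In RLTR9E, 4 of 8 copies from 1157 to 1169 were positive. In RLTR13G, 5 of 7 from 4 to 14 were positive, with values from -2.35 to 3.26, and 2 of 5 from 567 to 573. In RLTR13E 2 of 5 from 164 to 168 were positive, with values from -0.89 to 2.14, and in RLTR9D2 4 of 5 from 136 to 143, with values from -2.05 to 1.86.

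The trophectoderm markers did not move together, although their sum was level. By adjusted p, 1 of the 6 tested was higher and 4 were lower, beside 21.7% and 21.8% of all genes tested. Their median log2 fold change was -0.95. Hand1, Gata3 and Ascl2 were lower by adjusted p, with log2 fold changes of -1.94, -1.06 and -0.69. Eomes, which also acts in mesendoderm, had 184 and 201 counts in WT and 610 and 486 in Terc-/-, a log2 fold change of 1.63, whereas the keratin gene Krt7 had 284 and 271 against 27 and 28, a log2 fold change of -3.21. Cdx2 had 4 to 23 counts and Elf5 0 to 5 in a library.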
